A study of Mus musculus with 12 samples.

Results

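A total of 485 autosomal chromatin regions were more accessible in iNKT1 cells and less accessible in iNKT2 cells of Hivep3-/- mice than in the same cells of C57BL/6 mice. They were selected on the measured values by 3 conditions on the normalised accessibility, which is on the log2 scale. The mean of the Hivep3-/- libraries was at least 0.8 above the C57BL/6 mean in iNKT1 cells, it was at least 0.8 below it in iNKT2 cells, and the highest of these 4 group means was at least 2.32 (5 insertions per kilobase). The members were 0.78% of the 62165 autosomal regions and came from a table of 63309 regions of 500 bp. The opposite rule, lower in iNKT1 and higher in iNKT2 cells, was met by 151 autosomal regions, or 0.243%.

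ATAC-seq, in which a transposase inserts sequencing adapters into open chromatin, was used on thymic iNKT1, iNKT2 and iNKT17 cells of untreated mice aged 8 to 9 weeks. The mice were wildtype C57BL/6 or Hivep3-/-, and each of the 6 groups of subset and genotype had 2 libraries. Cells came from pooled thymi and were sorted as iNKT1 (CD122+ ICOS-), iNKT2 (ICOS+ Izumo1r+ CD138-) or iNKT17 (ICOS+ Izumo1r- CD138+). They were then combined for the transposition and separated by ICOS and CD138 alone. The sample titles number single mice and no source ties a library to its own pool, so p-values measure the spread between these samples only, which may be technical. The label Hivep3-/- names no restriction of the deletion to a cell type. In such bulk libraries, fewer cells with an open region cannot be told apart from less opening per cell.

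iNKT cells are T cells with a semi-invariant receptor that recognises lipids presented by CD1d, and they acquire effector functions while still in the thymus. iNKT1 cells rely on T-bet and make interferon gamma, iNKT2 cells have high PLZF and GATA3 and make interleukin 4, and iNKT17 cells rely on RORgt and make interleukin 17. HIVEP3 is a large zinc finger protein that acts as a transcription factor and as an adapter. Distal open regions often differ between such subsets, whereas promoters tend to be open in all of them.

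The 5 members printed next were taken from the 12 with the largest reversal, the size of a reversal being the smaller of the iNKT1 and the iNKT2 difference. They are shown because their central 300 bp hold a match to the bZIP (AP-1) motif TGACTCA or to the Runt motif AACCACA, both of which were more frequent among members than among all autosomal regions. Each is the plus strand of GRCm38.p6 (mm10), 5′ to 3′, in lower case, and capitals mark matches on either strand to the bZIP, Runt or TCF motif. No other motif was marked.
Cobll1 intron, chr2:65161720-65162019, bZIP on both strands: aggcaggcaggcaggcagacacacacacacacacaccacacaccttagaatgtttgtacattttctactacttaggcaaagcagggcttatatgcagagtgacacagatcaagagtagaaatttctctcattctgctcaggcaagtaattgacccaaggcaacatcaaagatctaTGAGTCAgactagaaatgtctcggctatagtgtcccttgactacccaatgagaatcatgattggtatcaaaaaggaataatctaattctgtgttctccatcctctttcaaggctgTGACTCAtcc
Trerf1 intron, nearest coding start Mrps10, chr17:47189839-47190138, bZIP on both strands: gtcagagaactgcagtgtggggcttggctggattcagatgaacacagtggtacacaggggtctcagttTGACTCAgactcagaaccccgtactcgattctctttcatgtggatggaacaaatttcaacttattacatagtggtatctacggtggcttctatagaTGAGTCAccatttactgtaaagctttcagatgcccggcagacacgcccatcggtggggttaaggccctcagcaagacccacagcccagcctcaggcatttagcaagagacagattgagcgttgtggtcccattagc
Aldh1a3 intron, chr7:66416726-66417025, Runt: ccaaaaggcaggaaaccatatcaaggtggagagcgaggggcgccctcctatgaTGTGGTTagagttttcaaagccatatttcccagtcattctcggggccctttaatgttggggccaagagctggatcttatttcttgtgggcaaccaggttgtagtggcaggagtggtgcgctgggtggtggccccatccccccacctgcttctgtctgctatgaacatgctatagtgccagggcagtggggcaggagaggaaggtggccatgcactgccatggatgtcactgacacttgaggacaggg
Tox2 intron, chr2:163299016-163299315, Runt: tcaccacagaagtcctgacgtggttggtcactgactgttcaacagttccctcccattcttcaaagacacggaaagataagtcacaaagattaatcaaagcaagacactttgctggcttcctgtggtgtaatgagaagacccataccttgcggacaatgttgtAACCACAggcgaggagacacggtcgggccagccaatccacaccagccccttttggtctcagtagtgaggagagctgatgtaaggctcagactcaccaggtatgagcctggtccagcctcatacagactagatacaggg
Dnaaf5 intron, chr5:139160956-139161255, Runt: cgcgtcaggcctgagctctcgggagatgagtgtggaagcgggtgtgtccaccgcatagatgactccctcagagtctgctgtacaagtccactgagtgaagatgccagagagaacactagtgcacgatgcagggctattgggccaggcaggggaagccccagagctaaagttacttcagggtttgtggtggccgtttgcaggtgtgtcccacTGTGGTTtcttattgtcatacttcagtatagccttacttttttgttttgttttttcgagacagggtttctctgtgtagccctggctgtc
The other 7 of the 12 held no match to these 3 motifs in their central 300 bp.

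At Tox2, which encodes an HMG-box transcription factor, the member lay in an intron 21.2 kb from the nearest transcription start. With the C57BL/6 pair given first here and in the later comparisons written with "against", its log2 accessibility was 1.82 and 2.30 against 4.28 and 4.41 in iNKT1 libraries and 4.44 and 4.79 against 2.34 and 2.70 in iNKT2 libraries. The Hivep3-/- iNKT1 level was thus near the C57BL/6 iNKT2 level, and the Hivep3-/- iNKT2 level was near the C57BL/6 iNKT1 level. In iNKT17 cells it read 1.23 and 1.83 in C57BL/6 and -0.41 and 0.19 in Hivep3-/- libraries. The rule did not use these 4 libraries, and the difference of -1.64 on the log2 scale passed the test (SE 0.31, n = 2 and 2, limma adjusted p = 0.0166). The SE was pooled over all 12 libraries, and with the 4 iNKT17 libraries alone it was 0.52 and the call was lost (limma adjusted p = 0.17).

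The intronic member of Aldh1a3, a retinaldehyde dehydrogenase that makes retinoic acid, lay 2.36 kb from the start site. Its log2 accessibility was -1.72 and 0.49 against 2.11 and 2.30 in iNKT1 libraries and 3.22 and 3.44 against 0.90 and 1.34 in iNKT2 libraries. The genotypes did not overlap in either subset. In iNKT17 cells it read -0.59 and 0.82 in C57BL/6 and -3.06 and -2.58 in Hivep3-/- libraries, the last pair being the lowest values of those libraries. It fell in iNKT17 cells, by limma with an adjusted p of 0.0384, and no fold is given against a group at its lowest value. With the iNKT17 libraries alone the call was lost (limma adjusted p = 0.168).

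In the Cobll1 intron, 56 kb from the start site of this actin-binding protein gene, log2 accessibility was 0.81 and 1.21 in C57BL/6 and 3.33 and 3.25 in Hivep3-/- iNKT1 libraries. In iNKT2 cells it was 2.01 and 2.75 in C57BL/6 and -1.22 and 0.94 in Hivep3-/- libraries, so the Hivep3-/- pair was far apart. In iNKT17 cells the levels were -1.38 and -0.09 in C57BL/6 and -0.78 and 0.19 in Hivep3-/- libraries, which overlap. The difference there was 0.43 on the log2 scale (SE 0.66, n = 2 and 2, limma adjusted p = 0.817).

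The Trerf1 member on chromosome 17 lay 179 kb from the nearest protein-coding start, that of the mitochondrial ribosome gene Mrps10. The annotation used here, GENCODE vM21, has no protein-coding gene over this region. Trerf1 is entered in it as a transcript without coding sequence, which describes that annotation and not the gene product. Log2 accessibility was -0.11 and 0.63 against 3.05 and 3.05 in iNKT1 libraries and 1.06 and 1.60 against -1.72 and 0.20 in iNKT2 libraries. The same region was open in iNKT17 cells of both genotypes, at 3.90 and 3.55 in C57BL/6 and 3.01 and 3.61 in Hivep3-/- libraries. A second member in the same intron, 170 kb from the Mrps10 start, was 1.71 higher in iNKT1 and 0.98 lower in iNKT2 cells on the log2 scale.

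In the Dnaaf5 intron, at a gene for a dynein assembly factor, log2 accessibility was 2.26 and 2.43 in C57BL/6 and 4.46 and 4.42 in Hivep3-/- iNKT1 libraries. It was 0.63 and 1.23 in C57BL/6 and -0.88 and -4.05 in Hivep3-/- iNKT2 libraries, -4.05 being the lowest value of that library. This region therefore stayed higher in iNKT1 than in iNKT2 cells in both genotypes, unlike the Tox2 and Aldh1a3 regions.

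The remaining 7 of the 12 were nearest to Nfe2l3, Stim2, Rfx4, Ednrb, Smim15, S100z and Spon1. The largest reversal of all members was an intergenic region 333 kb from Nfe2l3, a CNC-bZIP transcription factor gene. Its log2 accessibility was -1.72 and -0.67 against 1.37 and 1.54 in iNKT1 libraries and 3.12 and 2.83 against 0.20 and 0.20 in iNKT2 libraries. Both genotypes were low there in iNKT17 cells, between -3.06 and -1.65.

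The promoter region of Stim2, a calcium sensor of the endoplasmic reticulum, differed from most members in being low in iNKT2 cells of both genotypes. It read 0.92 and 0.06 against 3.68 and 3.28 in iNKT1 libraries and -2.52 and -0.55 against -3.79 and -4.05 in iNKT2 libraries. The Hivep3-/- iNKT2 pair was at the lowest values of both libraries, so the iNKT2 difference has no interpretable fold. In iNKT17 cells both C57BL/6 libraries were at their lowest value of -4.05. The Hivep3-/- libraries read -1.52 and -2.58, the latter being the lowest value of the second library. This iNKT17 difference did not pass (limma adjusted p = 0.308) and has no interpretable fold either. The Ednrb promoter, at the endothelin B receptor gene, read 0.15 and -2.39 against 1.93 and 1.79 in iNKT1 libraries and 3.08 and 3.40 against 0.51 and 1.65 in iNKT2 libraries. A second Ednrb member, 6.29 kb away, was 2.76 higher in iNKT1 and 0.93 lower in iNKT2 cells on the log2 scale, and these were the only regions assigned to that gene.

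**Figure D1:**
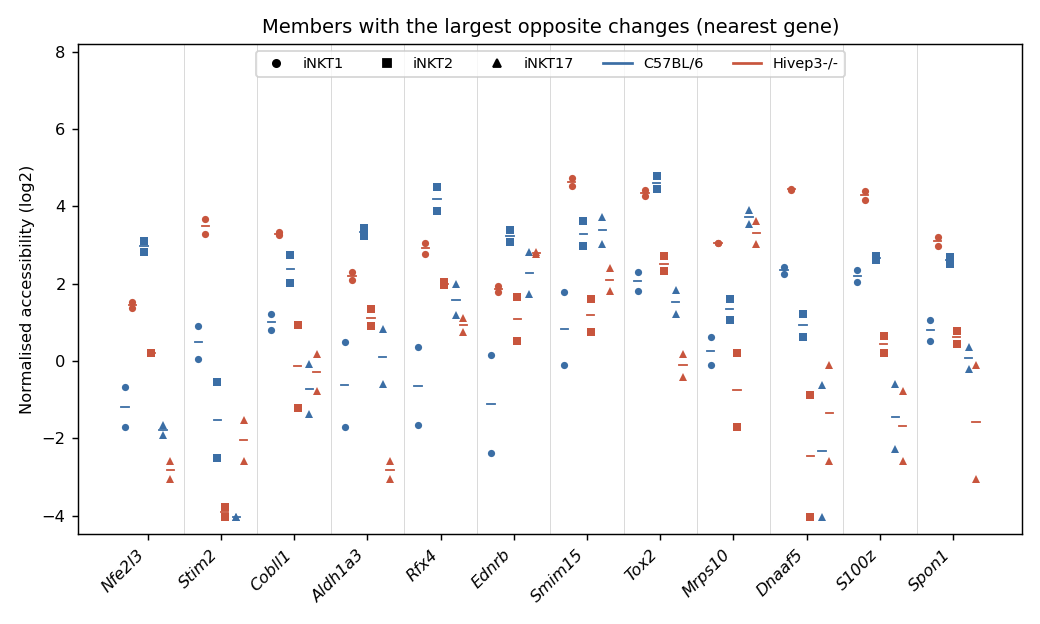
Log2 normalised accessibility (y axis) of the 12 members with the largest reversal, named by the nearest protein-coding start. Each point is a library and each short line the mean of 2; in iNKT1 cells (circles) the Hivep3-/- points lie above the C57BL/6 points, and in iNKT2 cells (squares) below them, as the choice of members requires. In iNKT17 cells (triangles) the Hivep3-/- points lie below the C57BL/6 points at Tox2 and Aldh1a3, overlap them at Cobll1 and lie above them at Stim2. The C57BL/6 points and the lower Hivep3-/- point at Stim2 are at the lowest values of their libraries, as are the Hivep3-/- points at Aldh1a3.

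Over all 485 members, the iNKT1 difference ranged from 0.80 to 4.01 with a median of 1.26 on the log2 scale, and the iNKT2 difference from -4.96 to -0.80 with a median of -1.24. These differences chose the members and carry no test. In 285 members both differences were at least 2-fold, and in 40 both were at least 3-fold. In iNKT1 cells 131 members were higher at an adjusted p under 0.1 and 3-fold, against 1.19% of all 63309 regions, and in iNKT2 cells 111 were lower by the same thresholds, against 1.51% of all regions. Both held for 28 members, and the share over all regions was not counted for this. Both Hivep3-/- libraries lay above both C57BL/6 libraries in iNKT1 and below both in iNKT2 cells at 441 members, against 6.4% of all regions. Nothing is read from these counts, since the rule used the same libraries.

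**Figure D2:**
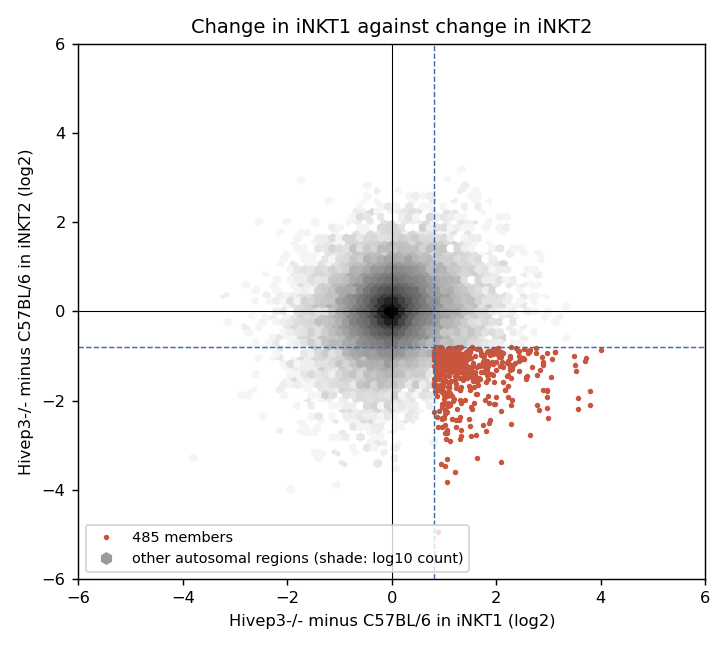
Hivep3-/- minus C57BL/6 group mean, on the log2 scale, in iNKT1 cells (x axis) and in iNKT2 cells (y axis). Points are the 485 members, grey shading the other autosomal regions on a log10 count scale, and dashed lines the thresholds of 0.8 and -0.8; members reach 4.01 in iNKT1 and -4.96 in iNKT2 cells, and most lie close to the thresholds.

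The members lay at low accessibility. Their median log2 level was 1.51 in C57BL/6 iNKT1, 3.03 in Hivep3-/- iNKT1, 3.14 in C57BL/6 iNKT2 and 1.71 in Hivep3-/- iNKT2 cells, whereas the median of all autosomal regions was 3.89 to 3.90 in these groups. At the level of 5 insertions per kilobase or more were 27.4% of members in C57BL/6 iNKT1 and 70.9% in Hivep3-/- iNKT1 cells, against 82% and 82.5% of autosomal regions. Adding a constant of 1 to the linear values before the logarithm left 248 members, and a constant of 5 left 31, so for most members the size of the difference depends on values near the lower end of the scale.

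**Figure D3:**
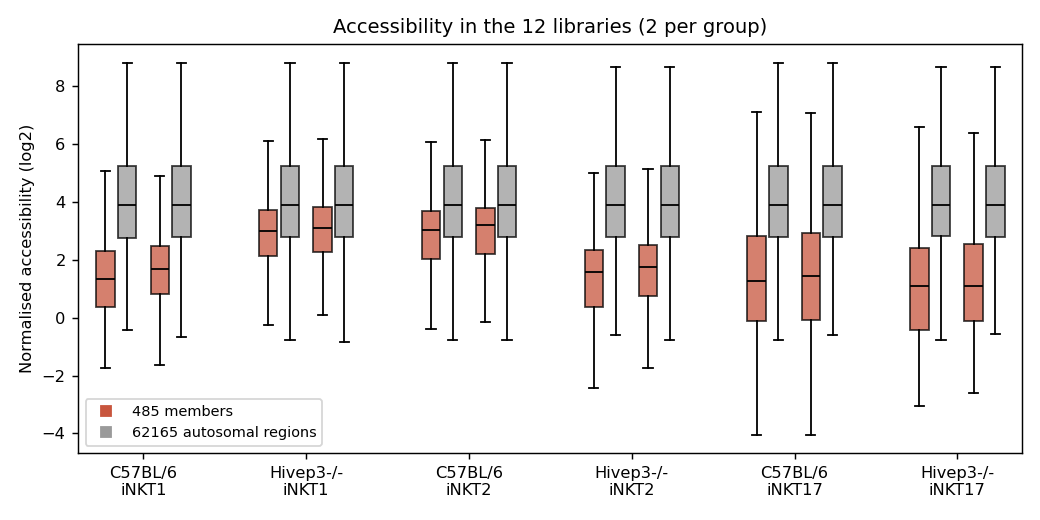
Log2 normalised accessibility in each of the 12 libraries, as boxes (quartiles, median line, whiskers to 1.5 times the box height, outliers not drawn) for the 485 members and for all 62165 autosomal regions. Member medians are close to 3 in Hivep3-/- iNKT1 and C57BL/6 iNKT2 libraries and between 1.10 and 1.75 in the other 8 libraries. The autosomal medians, which the normalisation brings together, are alike in all 12.

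The depth of the libraries moved with the direction of the rule. The normalised libraries had near-equal autosomal medians, 3.896 to 3.903 on the log2 scale, and some shared the same lowest value. Depth was therefore read from the number of distinct values up to the median of a library, which grows with the number of insertions. It was 139 and 170 in C57BL/6 and 227 and 491 in Hivep3-/- iNKT1 libraries, but 219 and 159 in C57BL/6 and 91 and 118 in Hivep3-/- iNKT2 libraries. In iNKT17 cells it was 142 and 134 in C57BL/6 and 85 and 73 in Hivep3-/- libraries. The deeper genotype was therefore the one with higher member values in each subset. A library was at its lowest value at 0 to 18 members in the iNKT1 and iNKT2 groups, and 448 members had none of the 8 libraries at the lowest value. The lowest values were unequal, and in iNKT17 cells they were -4.05 in both C57BL/6 and -3.06 and -2.58 in the Hivep3-/- libraries. The part of depth in the member values was not tested.

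The rule was also applied to replicate 1 alone and to replicate 2 alone. On replicate 1 it chose 541 regions, of which 228 (42.1%) also met it in replicate 2, against 0.882% of all autosomal regions. On replicate 2 it chose 548 regions, of which 228 (41.6%) met it in replicate 1. The signs were kept in the other replicate, higher in iNKT1 and lower in iNKT2 cells, at 83.5% and 79.9% of these regions, against 22% and 21.8% of autosomal regions. The opposite rule chose fewer, 253 regions on replicate 1 and 213 on replicate 2. Same-numbered libraries of 1 genotype may share a pool, and the depth difference was present in both replicates.

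Members were mostly regions of iNKT2 cells in C57BL/6 mice and of iNKT1 cells in Hivep3-/- mice. In C57BL/6 the iNKT2 mean exceeded the iNKT1 mean at 354 members (73%), against 49.5% of autosomal regions, and in Hivep3-/- mice at 122 members (25.2%), against 51.5%. The rule favours this shift, so it is a description. Of all 3 C57BL/6 subsets, iNKT2 was the highest at 287 members (59.2%), iNKT1 at 112 and iNKT17 at 86. In Hivep3-/- mice iNKT1 was the highest at 316 members (65.2%), iNKT2 at 97 and iNKT17 at 72.

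The members fell into 3 classes by this preference. At 232 members accessibility was higher in iNKT2 cells of C57BL/6 mice and higher in iNKT1 cells of Hivep3-/- mice, as at Tox2 and Aldh1a3. At 122 members iNKT2 cells were higher in both genotypes, with a median log2 level of 3.64 in C57BL/6 iNKT2 and 2.48 in Hivep3-/- iNKT2 cells. A region 11.2 kb from Btla, an inhibitory receptor gene, was of this kind, at 4.93 and 5.24 in C57BL/6 and 3.88 and 4.13 in Hivep3-/- iNKT2 libraries, with 1.82 and 1.93 in C57BL/6 and 3.05 and 3.00 in Hivep3-/- iNKT1 libraries. At 131 members iNKT1 cells were higher in both genotypes, with medians of 2.54 in C57BL/6 and 3.94 in Hivep3-/- iNKT1 cells against 1.01 and -0.36 in iNKT2 cells. A pair of neighbouring regions 9.15 and 9.66 kb from the mannosidase gene Man2b2 was of this last kind. The first of them read 4.88 and 4.82 in C57BL/6 and 6.10 and 6.01 in Hivep3-/- iNKT1 libraries, while all 4 iNKT2 libraries were at -1.06 or lower.

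The iNKT17 libraries were not used by the rule, so the difference between the genotypes in iNKT17 cells is measured on other libraries. The error of its test is pooled over all 12 libraries, among them the 8 that the rule used. More members were lower than higher in Hivep3-/- iNKT17 cells. The median log2 difference was -0.22 over the members and -0.01 over the autosomal regions, and the difference was below 0 at 300 members (61.9%), against 51.6% of autosomal regions. Both Hivep3-/- libraries lay below both C57BL/6 libraries at 165 members (34%), against 22.3% of all regions, and above both at 69 members (14.2%), against 21.8%. For the 151 regions of the opposite rule the median was 0.08, with 69 below 0.

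By limma, at an adjusted p under 0.1 and 3-fold, 14 members (2.89%) fell in iNKT17 cells, against 0.368% of all regions, and 9 members (1.86%) rose, against 0.373% of all regions. At an adjusted p under 0.1 with any fold, 33 members fell, against 2.28% of all regions, and 12 rose, against 2.92%. At an unadjusted p under 0.05 there were 124 members and 10543 regions in all. The members were also more spread out than other regions in both directions, with 106 at least 0.8 lower (21.9%, against 3.75% of autosomal regions) and 52 at least 0.8 higher (10.7%, against 3.62%). Their level in iNKT17 cells was low, since 323 were below 5 insertions per kilobase in both genotypes, among them 20 of the 23 that passed. At 84 members, 9 of them among the 23, an iNKT17 library was at its lowest value. Where an iNKT17 group had to reach 5 insertions per kilobase on average, 167 members were tested by limma and 3 fell and 0 rose, of 151 calls among 54311 regions. At an unadjusted p under 0.05 there were 47 of these members. The share over all regions was not counted for this filter, so nothing is read from the 47. With only the 4 iNKT17 libraries in the fit, 1 member rose and 5 fell, where 101 and 127 of all regions did. The median change of the members was -0.20 without the second C57BL/6 library and -0.15 without the first Hivep3-/- library.

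**Figure D4:**
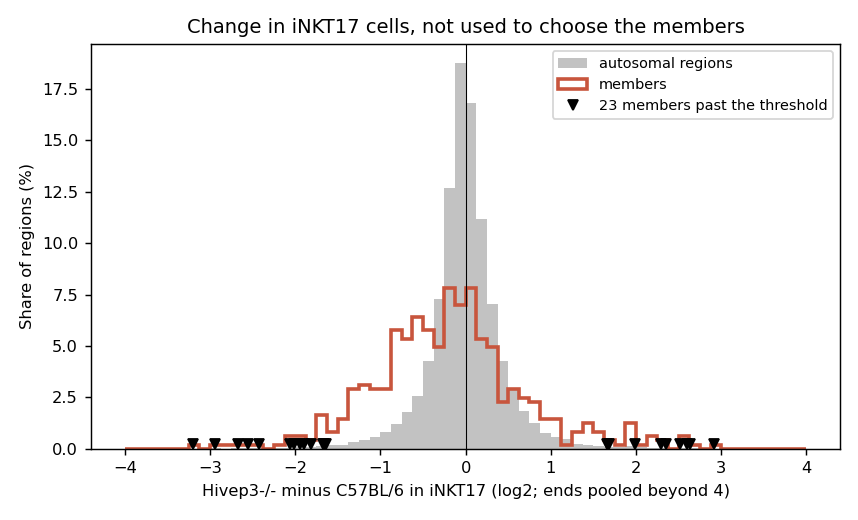
Distribution of the Hivep3-/- minus C57BL/6 difference in iNKT17 cells (x axis, log2) as the share of regions (y axis, percent) for the members (line) and all autosomal regions (grey). The members are spread more widely and their median is -0.22 against -0.01; triangles mark the 23 members that passed the test, 14 below and 9 above 0.

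The iNKT17 difference varied with the class. Its median was -0.30 at the 232 members that changed preference, with 155 below 0, and -0.53 at the 122 members higher in iNKT2 cells of both genotypes, with 96 below 0. It was 0.15 at the 131 members higher in iNKT1 cells of both genotypes, with 49 below 0. Members that fell past the threshold numbered 10, 4 and 0 in these classes, against 0.368% of all regions. Members that rose numbered 4, 1 and 4, against 0.373% of all regions. The median iNKT17 level of the 3 classes, in the same order, was 1.69, 1.61 and 0.40 in C57BL/6 and 1.33, 0.88 and 0.78 in Hivep3-/- mice. The last class was thus the least open, and the lowest possible values were higher in the Hivep3-/- (-3.06 and -2.58) than in the C57BL/6 iNKT17 libraries (-4.05). The difference between the classes and the part of the low levels in it were not tested.

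The largest falls in iNKT17 cells were at Npas1, Aldh1a3, Eaf1, Aldh1b1 and Diaph3. The Npas1 member lay in an intron of Arhgap35 and read 2.06 and 2.13 in C57BL/6 and 0.38 and -2.58 in Hivep3-/- iNKT17 libraries (limma adjusted p = 0.0237). The Diaph3 member, in an intron of this formin gene, read 0.18 and 0.55 in C57BL/6 and -1.52 and -2.58 in Hivep3-/- iNKT17 libraries (limma adjusted p = 0.0334). In both, the second Hivep3-/- library was at its lowest value, as it was at Eaf1 (limma adjusted p = 0.0564) and Aldh1b1 (limma adjusted p = 0.0782). Leaving out 1 of the 4 iNKT17 libraries kept the Npas1 call in 3 of 4 fits, the Aldh1a3 call in 2, and the Eaf1, Aldh1b1 and Diaph3 calls in 1 each. With the iNKT17 libraries alone Npas1 passed (limma adjusted p = 0.0803), and Diaph3, Eaf1 and Aldh1b1 did not (limma adjusted p = 0.185, 0.162 and 0.189).

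Of the 14 members that fell past the threshold, 6 had an iNKT17 library at its lowest value. Falls that rested on no lowest value included one at Ttc7b, a subunit gene of a phosphatidylinositol 4-kinase complex. Its intronic member 34.7 kb from the start read 3.04 and 2.98 in C57BL/6 and 1.32 and 1.35 in Hivep3-/- iNKT17 libraries, a difference of -1.68 on the log2 scale (SE 0.26, limma adjusted p = 0.00656, and 0.038 with the iNKT17 libraries alone). A second Ttc7b member, 7.12 kb away, read 3.82 and 3.99 in C57BL/6 and 2.70 and 2.56 in Hivep3-/- iNKT17 libraries. It differed by -1.27 with a limma adjusted p of 0.0353 and so passed at any fold only. The third Ttc7b member, at 55.9 kb, did not pass (difference 0.08, limma adjusted p = 0.95). An intergenic member 4.66 kb from E230025N22Rik read 2.49 and 2.67 in C57BL/6 and 0.74 and 1.11 in Hivep3-/- iNKT17 libraries. Its difference of -1.66 passed (limma adjusted p = 0.0091, and 0.063 with the iNKT17 libraries alone). A second member of that gene, at 13.2 kb, differed by -1.20 and passed at any fold only (limma adjusted p = 0.029).

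The largest rises were at Ralgapa2, Man2b2, Ccdc54, Crybb3 and Bach2. Bach2, a bZIP repressor gene of T cells, had an intronic member 11.7 kb from the start that read -1.38 and -3.02 in C57BL/6 and -0.10 and 0.40 in Hivep3-/- iNKT17 libraries (limma adjusted p = 0.0431). In iNKT1 cells it read 0.36 and 1.13 in C57BL/6 and 2.91 and 2.98 in Hivep3-/- libraries, and in iNKT2 cells 2.45 and 3.21 against 0.99 and 1.75. The iNKT17 values were thus low in both genotypes. The intergenic member nearest to Ccdc54, 249 kb away, read -3.12 and -2.29 in C57BL/6 and -0.41 and 0.19 in Hivep3-/- iNKT17 libraries (limma adjusted p = 0.0224). All 5 named rises were below 5 insertions per kilobase in both genotypes, and leaving out 1 iNKT17 library kept them in 1 to 3 of 4 fits. With the iNKT17 libraries alone none of the 5 passed (limma adjusted p = 0.242 at Bach2 and 0.218 at Ccdc54).

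Transcription factors of a list of 76 had 14 members among their 1637 regions (0.855%, against 0.78% of autosomal regions). Of these 14, Bach2 rose and Tox2 fell in iNKT17 cells, and 10 were below 0. The Stat3 member, in an intron 1.26 kb from the start of this cytokine signalling factor, read 1.56 and 1.93 against 3.40 and 3.40 in iNKT1 libraries and 3.84 and 4.20 against 2.56 and 2.15 in iNKT2 libraries. It did not overlap between the genotypes in either subset, and its iNKT17 levels of 0.82 to 1.11 overlapped (limma adjusted p = 0.92). The remaining factors with a member were Id2, Nfil3, Nfatc1 with 2, Zeb1, Zeb2, Maf, Mycn, Ikzf2, Runx3 and Myc. Assignment is by the nearest start alone, and the Zeb2, Id2 and Myc regions lay 1250, 311 and 203 kb away, the last within Pvt1.

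Maf and Mycn regions showed iNKT17 levels above those of iNKT1 cells. Maf encodes a bZIP factor of interleukin 17-producing cells, and its member read -3.12 and -3.79 against -1.35 and -3.12 in iNKT1 libraries and 2.65 and 2.98 against 0.06 and 0.35 in iNKT2 libraries. The iNKT1 genotypes thus met at a low level, and the C57BL/6 pair was at the lowest values of its libraries. The Mycn promoter member, 31 bp from the start of this MYC family gene, was 5.51 and 5.33 in C57BL/6 and 5.46 and 5.31 in Hivep3-/- iNKT17 libraries, with 1.56 and 1.97 against 2.74 and 2.69 in iNKT1 and 3.08 and 2.64 against 1.74 and 1.75 in iNKT2 libraries. Its iNKT17 values overlapped, with a log2 difference of -0.04 (SE 0.21, limma adjusted p = 0.961).

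Members at genes of the effector programs were counted against the 0.78% of autosomal regions that were members. A list of 30 iNKT1 genes had 2 members among 340 regions (0.588%), a list of 30 iNKT2 genes 4 among 560 (0.714%) and a list of 25 iNKT17 genes 4 among 315 (1.27%). The iNKT1 genes were Ccl5, a chemokine, and Id2. The iNKT2 genes were Pdcd1, which encodes the inhibitory receptor PD-1, Btla, Bach2 and Ikzf2, and the iNKT17 genes were Il17a, Il17f, Maf and Ramp1. The Pdcd1 intronic member read 4.26 and 4.52 in C57BL/6 and 5.46 and 5.56 in Hivep3-/- iNKT1 libraries, and 2.10 and 2.66 against 1.44 and 0.94 in iNKT2 libraries.

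Members near cytokine genes differed in their iNKT17 level. The Il17a member, 9.81 kb from the start, was among the most open of the named members, with the 4 iNKT17 libraries between 6.92 and 7.11 and the Hivep3-/- pair below the C57BL/6 pair (log2 difference -0.14, SE 0.11, limma adjusted p = 0.582). The same region read 2.81 and 2.80 against 3.76 and 3.89 in iNKT1 and 6.09 and 5.98 against 5.01 and 5.06 in iNKT2 libraries. The Il17f member read 2.50 and 1.86 against 3.37 and 2.89 in iNKT1 libraries. Its Hivep3-/- iNKT2 libraries, at -3.79 and -4.05, were at their lowest values, and its iNKT17 libraries read 1.71 and 2.16 in C57BL/6 and 1.74 and 2.08 in Hivep3-/- mice. Il10, which encodes an anti-inflammatory cytokine, had 2 members among its 10 regions, and all 10 regions were below 0 in iNKT2 cells, but only 4 were above 0 in iNKT1 cells, with a median of -0.24. The member 13.6 kb away read 4.09 and 3.55 in C57BL/6 and 2.95 and 2.14 in Hivep3-/- iNKT17 libraries. Its difference of -1.27 passed at any fold only (limma adjusted p = 0.0879, and 0.082 with the iNKT17 libraries alone). The member 2.96 kb away did not pass (difference 0.02, limma adjusted p = 0.981). Lif, an interleukin 6 family cytokine gene, had 3 members among 18 regions. The one 30.9 kb away read 1.03 and 1.20 in C57BL/6 and -0.10 and 0.82 in Hivep3-/- iNKT17 libraries, which did not pass (limma adjusted p = 0.337). The one 77.2 kb away was open in iNKT17 cells at 5.97 and 6.04 in C57BL/6 and 5.82 and 6.05 in Hivep3-/- libraries.

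Genes of T cell receptor signalling had 4 members among the 727 regions of a 40-gene list (0.55%, against 0.78% of autosomal regions), at Nfatc1 with 2, Pdcd1 and Ptprc, and genes of the NF-kB pathway had 2 among 325 regions of 31 genes (0.615%, against 0.78%). The latter were Nfkb1, which encodes p105 and p50, and Nfkbiz, an atypical IkB gene. The Nfkbiz member, 51.6 kb from the start, read 4.38 and 4.15 in C57BL/6 and 2.88 and 2.66 in Hivep3-/- iNKT17 libraries, and passed at any fold only (difference -1.50, SE 0.40, limma adjusted p = 0.0702). In iNKT2 cells it read 2.70 and 2.49 against -1.22 and -0.22. A list of 51 receptor and homing genes had 1 member among 623 regions (0.161%, against 0.78%), 133 kb from the integrin gene Itgb1. Hivep3 had 19 regions and 0 members, and its promoter stayed open in both genotypes, which does not check the deletion.

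The members were nearest to 427 genes, and 48 genes had 2 or more members, 106 in all. The 8 genes with at least 3 were Tmod1 and 2900026A02Rik with 4 and Lif, Ttc7b, Nkd1, Syk, Ptprj and Chst3 with 3. Syk encodes a tyrosine kinase of antigen receptor signalling. Its intronic member 20.3 kb from the start read 0.51 and 1.66 against 2.41 and 2.45 in iNKT1, 4.35 and 4.76 against 3.38 and 3.33 in iNKT2, and 3.08 and 3.04 against 1.10 and 2.08 in iNKT17 libraries. This region and the one at 31.3 kb passed in iNKT17 cells at any fold only, with limma adjusted p of 0.0537 and 0.0637, and the member 131 kb away did not (adjusted p = 0.998).

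Tmod1, a tropomodulin gene that caps actin filaments, had 4 members spread over introns and a promoter. Their C57BL/6 iNKT2 values lay between 3.74 and 4.60 and their Hivep3-/- iNKT2 values between 1.75 and 2.83, and the iNKT1 values were 0.51 to 1.66 in C57BL/6 and 1.79 to 2.88 in Hivep3-/- libraries. None of the 4 passed in iNKT17 cells, where the differences were -1.34 to -0.46. Nkd1, an inhibitor gene of Wnt signalling, had 3 members among 6 regions, and all 6 were above 0 in iNKT1 and below 0 in iNKT2 cells, with medians of 0.85 and -1.62. Ptprj, the gene of the receptor phosphatase CD148, had 3 among 19 regions, with 16 above 0 in iNKT1 and 17 below 0 in iNKT2 cells. Loci differed in this, and at Tiam1, with 2 members, 10 of 31 regions were above 0 in iNKT1 and 29 below 0 in iNKT2 cells. Such counts and medians over all regions of a gene, here and elsewhere, include its members, whose signs the rule fixed. They are descriptions only.

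Beyond the members themselves, 618 regions lay within 10 kb of a member. Of these, 260 (42.1%) were above 0 in iNKT1 and below 0 in iNKT2 cells, against 21.1% of the 61680 autosomal regions that were not members, and their median differences were 0.11 and -0.19. They were read in the same libraries that chose the members, and the shares were not matched for level or for promoters. The comparison is a description and was not tested. Only 49 members lay within 10 kb of another member. Chromosome 8 had the highest share of its regions among the members (36 of 2957, 1.22%) and chromosome 14 the lowest (12 of 2395, 0.501%).

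Members lay away from promoters. A start site lay within 1000 bp at 48 members (9.9%), against 33.9% of autosomal regions. Introns held 247 (50.9%, against 36.9%), intergenic sequence 165 (34%, against 24.4%) and exons 25 (5.15%, against 4.75%). The median distance to the nearest protein-coding start was 15.6 kb, against 5.49 kb, and 47 members were more than 100 kb away. The median GC content was 48.8%, against 50%, and outside promoters 48.4%, against 47.8%.

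Of 12 short motifs searched on both strands of the 500 bp, 3 are described first, those more frequent among members with the largest ratios to the autosomal share. The bZIP motif TGACTCA, bound by AP-1 and BACH factors, was in 125 members (25.8%), against 11.5% of autosomal regions and 6.62% of the regions of the opposite rule. The TCF motif ATCAAAGG, bound by TCF-1 and LEF-1, was in 33 members (6.8%), against 2.36% and 1.32%. The Runt motif AACCACA was in 140 members (28.9%), against 17.4% and 12.6%. Outside promoters the shares were 26.5% against 13.9% for bZIP, 7.55% against 2.88% for TCF and 29.5% against 21.6% for Runt. At least 1 of the 3 was found in 250 members (51.5%, against 28.4%), and bZIP with Runt in 35 (7.22%, against 2.18%).

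The GATA motif AGATAA, bound by GATA factors, was in 29.3% of members, against 20.6% of autosomal regions. The E protein motif CAGCTG, a palindrome read alike on both strands, was in 35.3%, against 27.1%. The NFAT motif TTTTCCA, bound by calcium-regulated factors, was in 13.2%, against 10%. The T-box motif AGGTGTGA, bound by T-bet, was in 3.71%, against 2.93%, and the ETS motif CAGGAAGT in 10.3%, against 9.87%. The motif of the ROR nuclear receptors, TAGGTCA, was in 5.98%, against 5.45%. The NF-kB motif GGANTTTCC was in 2.89%, against 2.45%. Less frequent among members were the Egr motif GCGTGGGNG, in 1.24% against 2.59%, and the CTCF motif AGGGGGCGC, in 0.619% against 1.81%. The NFAT letters can overlap the NF-kB letters. A match is a run of letters only, and these shares carry no test.

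**Figure D5:**
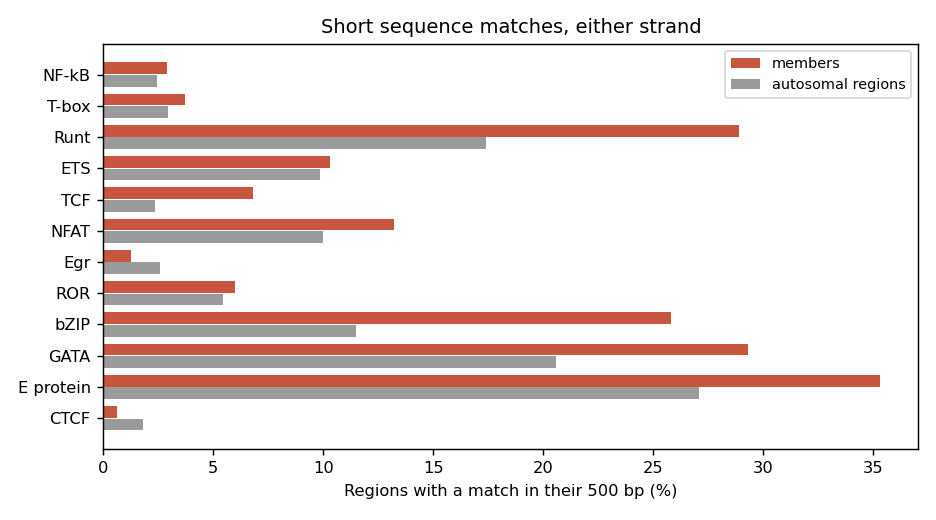
Share of regions (x axis, percent) with at least 1 match to each of 12 motifs on either strand of their 500 bp, for the 485 members and the 62165 autosomal regions. Among the motifs more frequent in members the ratio is largest at TCF (6.8% against 2.36%) and bZIP (25.8% against 11.5%), and Egr and CTCF are less frequent in members, CTCF at 0.619% against 1.81%.

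Of the 3 motifs described first, bZIP was nearly as frequent in each class of subset preference, and Runt and TCF were not. The bZIP motif was in 25%, 24.6% and 28.2% of the members that changed preference, stayed higher in iNKT2 or stayed higher in iNKT1 cells. Runt was in 32.8%, 18.9% and 31.3%, TCF in 6.47%, 9.84% and 4.58%, and T-box in 3.02%, 2.46% and 6.11%. The median iNKT17 difference was -0.22 at members with bZIP, -0.21 with Runt and -0.36 with TCF.

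At the thresholds, the members just inside were nearest to Marveld3, Sult2b1 and Lif, with an iNKT2 difference of -0.80 at Marveld3 and Sult2b1 and an iNKT1 difference of 0.80 at Lif. The regions just outside were nearest to Dapl1, with an iNKT2 difference of -0.80, Pacsin2, with an iNKT1 difference of 0.80, and the leukotriene receptor gene Ltb4r1, with an iNKT1 difference of 0.79.

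Summed over each list of subset genes, promoter accessibility was highest in the libraries of that label, though single marker promoters varied. Summed linear accessibility at promoters of the iNKT1 list was 2183 to 2316 in iNKT1 libraries, against 998 to 1089 in iNKT2 and 1142 to 1172 in iNKT17 libraries, and that of the iNKT17 list was 1778 to 1893 in iNKT17 libraries, against 890.5 to 957.6 elsewhere. The iNKT2 list summed to 2913 to 3006 in iNKT2 libraries, and in iNKT1 libraries to 2601 and 2579 in C57BL/6 but 2337 and 2406 in Hivep3-/- mice, the direction opposite to that of the members. Promoters of double-positive thymocyte markers summed to 234.1 and 221.6 against 220.8 and 213.4 in iNKT1 and to 272.9 and 254.9 against 237.7 and 219.4 in iNKT2 libraries. Of those 12 markers, Rag1, Rag2, Ptcra, Dntt, Cd8a and Cd8b1 had no promoter region. B cell, myeloid and epithelial promoters, with 3 of 10 genes covered in each list, summed to 17.96 to 45.31, 75.37 to 133.1 and 107.3 to 142. Arpp21, a double-positive marker, had 2 members of its 6 regions, and the myeloid list had 1 member of 36 regions, at Itgam. The part of these cell types in the result was not tested.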

How the data were processed

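ATAC-seq of 3 iNKT subsets from 2 genotypes gave 12 libraries, 2 per group by the sample labels. Per the study's methods, reads were trimmed to 50 bp, mapped to the mouse genome and passed through the ENCODE pipeline. Peaks of all replicates were merged to regions of 500 bp, and the insertion counts of each region were normalised with voom. The submitters' processing notes name Trimmomatic 0.39 and mm10. The deposited values are on the log2 scale, as the authors' normalised insertions per kilobase. The normalised libraries have near-equal medians and some share a lowest value. Depth is therefore known only through the coarseness of low values, and no counting interval was given. At low values 1 insertion moves the log2 level strongly.

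The members and the gene lists were chosen with earlier results of these data known. Coordinates are 1-based on GRCm38.p6 (mm10), and genes are from GENCODE vM21, taken by the nearest protein-coding start. Promoters are within 1000 bp of any annotated start. Genotypes were compared in iNKT17 cells with limma 3.58.1 in R 4.3.3, with 6 group means over all 12 libraries, a variance trend (6 residual and 7.17 prior degrees of freedom) and Benjamini-Hochberg adjustment over 63309 regions. No filter on level was used. Calls needed an adjusted p under 0.1 and 3-fold. The 12-library fit takes its error also from the 8 libraries used by the rule, and a fit of the 4 iNKT17 libraries alone was the alternative. The fit was tried on simulated data with changes placed only in regions well open in iNKT17 cells. That trial did not cover the low levels at which most members passed. The same fit gave the counts of calls in iNKT1 and iNKT2 cells, which are descriptions only, because the rule used those values.

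Named members were the 12 with the largest reversal, the 5 largest rises and 5 largest falls among the iNKT17 calls, those nearest to a listed gene, genes with 2 or more members, and the 3 members nearest to the thresholds on either side. Alternatives were other thresholds, constants added before the logarithm, centring, renewed quantile normalisation, filters, other variance models, a replicate block and leaving out libraries. Tables were handled in Python 3.11.15 with numpy 2.4.6 and pandas 2.3.3, and plots drawn with matplotlib 3.10.9.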

Additional observations from a re-analysis of the deposited data

Results flagged for a closer look

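At 441 of the 485 members every Hivep3-/- library lay above every C57BL/6 library in iNKT1 cells and below every one in iNKT2 cells, so that both subsets moved in opposite directions. The rule fixes these directions, and the difference between the subsets was not tested. Among these 441, 9 rose in iNKT17 cells past the threshold, opposite to iNKT2 cells, and 14 fell, opposite to iNKT1 cells. Over all regions 0.373% rose and 0.368% fell. Whether the iNKT17 change differed from that of the other subsets was not tested.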

How the results depend on the processing

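The number of members depended on the thresholds and on the handling of low values. It was 875 with a change of at least 0.6, 285 with 1.0 and 310 with a level of at least 10 on the linear scale, and 248 and 31 with constants of 1 and 5 added before the logarithm. It was 443 to 579 without 1 library and 541 to 548 on 1 replicate number alone. The number of members past the threshold in iNKT17 cells was 23 as reported, with 469 regions in all. It was 3 and 6 where the mean had to reach 5 insertions per kilobase in an iNKT17 group or over all libraries (151 and 234 regions in all). It was 2 with a constant of 1 (86 regions in all) and 0 with a constant of 5. With the constant of 5, 8 regions passed in all by limma and 99 members had an unadjusted p under 0.05. The share over all regions at that p was not counted for this constant, so nothing is read from the 99. The number of members passing was 6 with only the iNKT17 libraries (228 regions in all), 14 with array weights (349) and 13 at an adjusted p under 0.05 (338). It was 42 with a 2-fold threshold (1332 regions in all) and 45 with no fold threshold (3293). Without members that had an iNKT17 library at its lowest value, a choice made after seeing the data, it was 14 of 401. Without 1 iNKT17 library it ranged from 10 (without the second C57BL/6 library) to 41 (without the first Hivep3-/- library). The median iNKT17 change of the members was -0.12 and -0.041 with the constants of 1 and 5, and ranged from -0.31 to -0.15 without 1 library. It was below 0 in every setting run. Members higher in C57BL/6 iNKT2 than iNKT1 cells numbered 351 to 367 without 1 C57BL/6 library, and members at promoters 76 with a window of 2000 bp. By gene bodies with 10 kb on either side, 11 members were at a listed gene, against 24 by the nearest start.

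With the replicate number as a block, 35 members passed in iNKT17 cells (15 up, 20 down), where 309 of all regions passed up and 313 down. The deviations of same-numbered libraries correlated between the genotypes with 0.113 for iNKT17, 0.145 for iNKT2 and 0.171 for iNKT1 cells, and with more than 0.1 in 14 of 15 pairs of groups. No source says what a number shares between the genotypes and the comparison has 2 pairs, so the block was kept as an alternative.

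Of the 23 members that passed in iNKT17 cells, 20 were below 5 insertions per kilobase in both genotypes. At 9 of the 23 an iNKT17 library was at its lowest value. The part of depth in these calls was not tested.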

Other observations

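Regions near 3 genes of aldehyde and retinoid metabolism were among the members, a grouping made after their values were seen and not tested. Besides the Aldh1a3 region, an intergenic member lay 49.3 kb from Aldh1b1, a mitochondrial aldehyde dehydrogenase gene. It read 1.02 and 1.07 against 1.74 and 2.39 in iNKT1 and 3.38 and 3.78 against 1.38 and 1.34 in iNKT2 libraries, C57BL/6 first. Dhrs3, which encodes a retinaldehyde reductase, had 2 intronic members among 8 regions. The one 12.1 kb from the start read 0.36 and 1.07 against 2.59 and 3.30 in iNKT1, and 3.88 and 4.26 against 3.17 and 2.74 in iNKT2 libraries. All 8 Dhrs3 regions were below 0 in iNKT2 and in iNKT17 cells, with medians of -0.70 and -0.74, and 5 were above 0 in iNKT1 cells.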
